A study of Mus musculus with 9 samples.

Results

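A set of 10 genes of the maternal mRNA decay machinery was followed across pools of mature mouse eggs: Btg4, Cnot6l, Cnot7, Cnot8, Zfp36l2, Dcp1a, Dcp2, Pan2, Pabpn1l and Xrn1. They were chosen by name, with earlier results of these data known, and all 10 were found among the 30153 genes of the joined count tables. The eggs were metaphase II (MII) oocytes, arrested in the second meiotic division, from 4-week-old females of mixed genetic background. Every group carried the same alleles, Sycp3CreERT2/+; Rosa26nT-nG/+. The first is an inducible Cre recombinase driven from the meiotic gene Sycp3, and the second is a reporter that makes nuclear tdTomato before recombination and nuclear GFP after it. The time of Cre induction is not given in the sources used here. Every female received 5 IU PMSG and, 48 h later, 5 IU hCG, and eggs were taken 13 h after hCG, stripped of cumulus cells with hyaluronidase and sorted by hand on fluorescence. The 3 groups were GFP High, GFP Low and RFP, with 3 libraries each. Each library was made from a pool of 15 to 16 eggs in GFP High, 49 to 57 in GFP Low and 87 to 100 in RFP. The comparisons ask whether eggs with different recombination histories carried different amounts of these transcripts at ovulation. The labels do not say whether the libraries of a group came from separate animals, so p-values measure the spread between these pools, which may be technical.

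A fully grown oocyte stops transcribing, and the egg lives on stored maternal transcripts until the embryo starts its own. During meiotic maturation part of this store is cleared, and the clearance begins with shortening of the poly(A) tail by the CCR4-NOT deadenylase complex. BTG4 bridges CCR4-NOT to the translation machinery on maternal transcripts, PABPN1L is a poly(A)-binding partner of BTG4, and ZFP36L2 brings CCR4-NOT to transcripts with AU-rich elements. CNOT7, CNOT8 and CNOT6L are catalytic deadenylases of the complex, and PAN2 is the catalytic subunit of a separate deadenylase. After deadenylation DCP2, helped by DCP1A, removes the cap, and the exonuclease XRN1 degrades the uncapped body from its 5′ end. The measurement was poly-A RNA captured on oligo-dT, so fewer molecules and molecules with shorter tails cannot be told apart. The same holds for fewer cells of a type and less RNA per cell.

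The libraries held 19381677 to 27746256 counts, and 14408 to 22022 genes had at least 1 count. This number was 17132, 14408 and 17482 in GFP High 1, 2 and 3. Every library of GFP Low (19982 to 22022) and RFP (20792 to 21913) had more. The part of this difference in the results was not tested. The reporter counts followed the labels: eGFP had 869 to 1081 counts in GFP High, 282 to 662 in GFP Low and 0 to 16 in RFP, and tdTomato had 46 to 94 counts in RFP, 16 to 35 in GFP Low and 0 to 2 in GFP High. All 14 oocyte markers had at least 3 counts in every library. The 19 cumulus and granulosa markers summed to 112 to 216 CPM (counts set to a common library size with TMM factors) in GFP High, 140 to 159 in GFP Low and 132 to 205 in RFP, and most of this was Nr5a2, at 101 to 158 CPM. Between 5 and 15 of these 19 markers reached 3 counts, with the fewest in GFP High 2. Amh, Pgr and Ereg were at 0 in 8 of 9 libraries each, while Cyp19a1, the aromatase of granulosa cells, had 165 to 499 counts in every library. The cumulus matrix genes Vcan, Tnfaip6 and Ptx3 were uneven. Vcan had 341 counts in RFP 2, 196 in RFP 1, 287 in GFP High 1 and 229 in GFP Low 1, while the other libraries had 0 to 51. In RFP 2, GFP High 1 and GFP Low 1, Tnfaip6 had 249, 197 and 129 counts and Ptx3 had 221, 159 and 122, and both were at 0 in GFP High 2 and RFP 3. Inha, Inhba and Ptgs2 were also highest in RFP 2, at 144, 188 and 168 counts. Other genes of the list were highest elsewhere. Has2 had 24 counts in GFP High 3, Cd44 22 in RFP 1, Fshr 57 in GFP Low 3 and Lhcgr 46 in GFP High 2. Some libraries thus held RNA of cumulus marker genes, and its part in the results was not tested.

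Per unit of counted gene length the 10 transcripts spanned a wide range in these eggs. This length can exceed that of 1 transcript: for Xrn1 it is 18585 bases, against 5499 for a coding transcript. In the authors' FPKM, a level per length and per library size, Btg4 averaged 540 over the 9 libraries and Xrn1 2.10, a ratio of 257. Btg4 ranked 53rd of 15857 genes tested by FPKM, whereas Xrn1 stood at percentile 45.1. Below Btg4 came Pabpn1l at 204 FPKM, Dcp1a at 135, Cnot8 at 56.1, Cnot7 at 35.2 and Cnot6l at 34.7. Dcp2 followed at 28.2 FPKM, Pan2 at 11.1 and Zfp36l2 at 5.35. By FPKM the adaptor Btg4 and its partner Pabpn1l thus headed the order. The catalytic subunits of CCR4-NOT lay in the middle and the 5′ exonuclease was last. By mean CPM, which is not divided by length, the order differed. Dcp1a was second at 1121, Cnot6l (361) and Dcp2 (248) stood above Pabpn1l (246), and Zfp36l2 was last at 19.1. The FPKM order held in all 9 libraries for each pair of neighbours except Cnot7 and Cnot6l. Cnot7 was above Cnot6l in 5 of 9 libraries, so these neighbours did not differ beyond their spread. Together the 10 genes took 0.363% to 0.420% of all counts of a library.

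**Figure D1:**
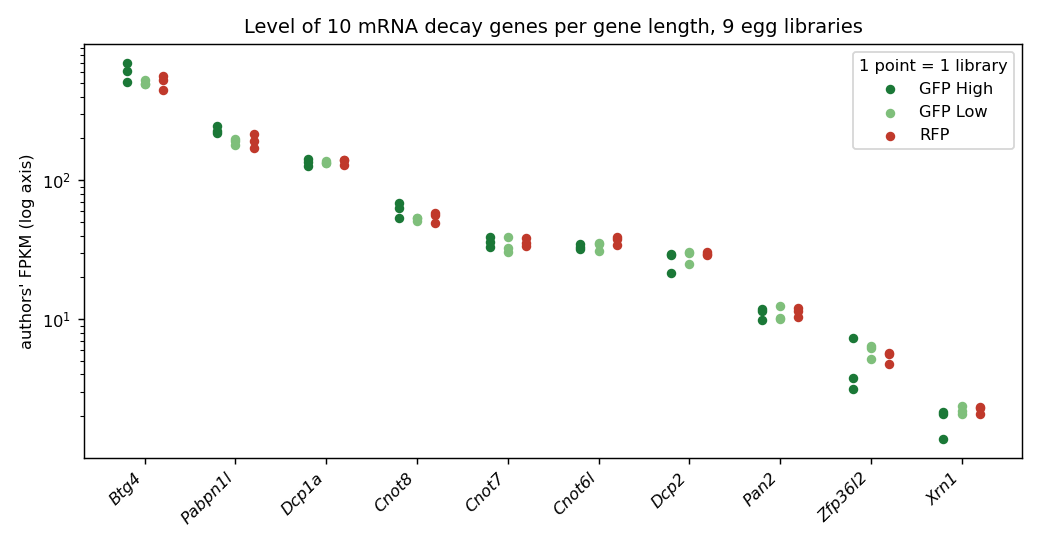
The authors' FPKM of each gene in each of the 9 libraries, on a log axis, with colours for GFP High, GFP Low and RFP. The libraries of a gene lie close together compared with the distance between genes, from Btg4 with a mean of 540 FPKM to Xrn1 with 2.10.

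Several members have a close relative, and for most of those given here the member was the more abundant per length. Btg4 stood at 540 FPKM against 2.29 for Btg1, 3.51 for Btg2 and 0.112 for Btg3, the other BTG adaptors measured. Pabpn1l stood at 204 FPKM against 10.9 for Pabpn1, the nuclear poly(A)-binding protein of other cells. Cnot6l, at 34.7 FPKM, was above its paralog Cnot6 at 4.35, and Dcp1a, at 135 FPKM, was above Dcp1b at 0.297. Zfp36l2, at 5.35 FPKM, was low itself, but Zfp36 stood at 0.720 and Zfp36l1 at 0.0501. Cnot7 and Cnot8 are both members, and both were present, at 35.2 and 56.1 FPKM. Xrn1 went the other way, at 2.10 FPKM against 24.7 for Xrn2.

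How far reads could be shared within such pairs depends in part on the longest stretch that is identical in both coding sequences. This measure takes no account of untranslated regions or of stretches with mismatches. In the pairs compared, which leave out Xrn1 with Xrn2, this stretch was short. It was 20 bases for Cnot7 with Cnot8 and for Cnot6l with Cnot6, 15 for Pabpn1l with Pabpn1 and for Dcp1a with Dcp1b, 12 for Btg4 with Btg3, and 32 for Zfp36l2 with Zfp36l1. The stretch in Cnot7 and Cnot8 is shown because both paralogs are abundant, and that in Zfp36l2 because it is the longest. They were read from GENCODE transcripts, at coding bases 463 to 482 of 858 in Cnot7 and 589 to 620 of 1455 in Zfp36l2. Each is written 5′ to 3′.
Cnot7 and Cnot8: tcatttcacagtggttatga
Zfp36l2 and Zfp36l1: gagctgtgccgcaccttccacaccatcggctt
Cnot8 also has a processed pseudogene, Gm18860, which matches 97.8% over 760 bases of a Cnot8 transcript. It had 54 to 153 counts against 2760 to 4405 for Cnot8. How far reads were shared between Cnot8 and Gm18860 was not tested, so the counts of Cnot8 are uncertain. Shorter matches of at least 95% join Dcp2 to Crbn, Thada and Mbd4 (95.6% over 114 bases) and Cnot7 to Zdhhc2 (99.4% over 158 bases), and Xrn1 to its antisense gene Gm16794 (184 bases). Further ones join Xrn1 to C78334 (97.9% over 145 bases) and Zfp36l2 to AC132455.1 (100% over 105 bases), neither of which was matched to the counts. Of genes overlapping a member on the other strand, Vps37a over Cnot7 had 642 to 944 counts and Cacna1d over Dcp1a had 177 to 278. Whether counting used strand is not given in the sources used here, so reads in these overlaps cannot be assigned with certainty.

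The promoters of the 3 members highest in FPKM differed in CpG content. RefSeq windows on GRCm38.p6, from 250 bases before to 50 bases after a start, were at hand for 7 of the 10 genes. They are shown for Btg4, chr9:51115751-51116050 on the plus strand, for Pabpn1l, chr8:122622686-122622985 on the minus strand, and for Dcp1a, chr14:30479315-30479614 on the plus strand. The Btg4 window lies inside the annotated span of the gene and not at its first base. Each line runs 5′ to 3′ and capitals mark CG.
Btg4: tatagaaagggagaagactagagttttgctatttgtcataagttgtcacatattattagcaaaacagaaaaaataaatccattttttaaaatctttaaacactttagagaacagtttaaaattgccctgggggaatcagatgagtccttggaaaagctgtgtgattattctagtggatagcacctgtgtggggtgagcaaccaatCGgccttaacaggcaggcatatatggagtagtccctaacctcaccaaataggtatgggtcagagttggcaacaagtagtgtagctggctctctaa
Pabpn1l: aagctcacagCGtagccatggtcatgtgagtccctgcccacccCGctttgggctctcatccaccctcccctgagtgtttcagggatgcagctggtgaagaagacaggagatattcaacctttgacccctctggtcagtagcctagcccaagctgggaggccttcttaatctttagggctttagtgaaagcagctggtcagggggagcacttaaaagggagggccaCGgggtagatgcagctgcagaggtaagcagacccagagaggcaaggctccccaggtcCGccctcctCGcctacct
Dcp1a: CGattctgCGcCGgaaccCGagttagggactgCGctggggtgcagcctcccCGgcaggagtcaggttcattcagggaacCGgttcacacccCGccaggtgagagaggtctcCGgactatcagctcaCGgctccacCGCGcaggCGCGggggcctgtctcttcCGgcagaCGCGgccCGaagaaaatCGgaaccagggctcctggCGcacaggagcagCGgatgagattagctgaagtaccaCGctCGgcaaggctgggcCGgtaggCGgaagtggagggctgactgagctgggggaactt
The Btg4 window holds 1 CG, more than 5.43% of all 32807 windows, whose median is 7. The Pabpn1l window holds 5 (more than 38.1% of windows) and the Dcp1a window 25 (more than 81.6%). Xrn1, the member lowest in FPKM, has 20 CG in its window, and Pan2 has 15. Cnot6l and Cnot8 have several windows each, with 31, 40 and 49 CG for Cnot6l and 3, 23, 30 and 30 for Cnot8. The count for a gene thus depends on the start taken. The E-box letters CANNTG, which read the same on both strands, occur 4 times in the Pabpn1l window, 2 times in Btg4 and 1 time in Dcp1a, and 72.3% of all windows hold at least 1. TATAAA on either strand is in none of the 12 windows of the 7 genes and in 13.6% of all windows. These matches describe letters and no measured binding.

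No member passed an adjusted p of 0.05 in any comparison of the groups. Each pair of groups was compared with edgeR's quasi-likelihood test over all genes kept by its count filter, which kept all 10 members. With Benjamini-Hochberg adjustment, 0 of 10 members passed in GFP High against RFP, where the share of all genes called was 0.0135%. Between GFP High and GFP Low 0 of 10 passed, with 0% of all genes called, and between GFP Low and RFP 0 of 10, with 0.0197% called. A test over the 3 groups at once also called 0 of 10, with 0.0126% of all genes called. The lowest adjusted p of a member in edgeR was 0.997 in GFP High against RFP, 0.998 in GFP High against GFP Low and 1.00 in GFP Low against RFP. At an unadjusted p below 0.05, which carries no correction, 0, 2 and 0 members passed in that order, where 4.09%, 3.77% and 2.62% of all genes did, and in the test of 3 groups 1 member passed, where 4.65% did. DESeq2 and limma-voom also called no member.

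The 95% intervals show how large a difference these libraries leave room for. In GFP Low against RFP all 10 intervals lay between 0.800-fold, the lower bound of Cnot6l, and 1.37-fold, the upper bound of Zfp36l2. In both comparisons with GFP High, 8 of 10 intervals lay within 1.5-fold in either direction. The exceptions were Zfp36l2, with lower bounds of 0.542-fold against RFP and 0.495-fold against GFP Low, and Xrn1, with 0.616-fold and 0.626-fold. The median log2 fold change of the members was -0.04 in GFP High against RFP, -0.00 in GFP High against GFP Low and -0.04 in GFP Low against RFP, beside -0.01, -0.00 and -0.00 for all genes tested. Of the 10 members 3 had a mean above RFP in GFP High, 1 had one above RFP in GFP Low and 5 stood higher in GFP High than GFP Low, beside 49.3%, 48.9% and 49.4% of all genes. The comparisons share libraries, so these values are not independent of each other.

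**Figure D2:**
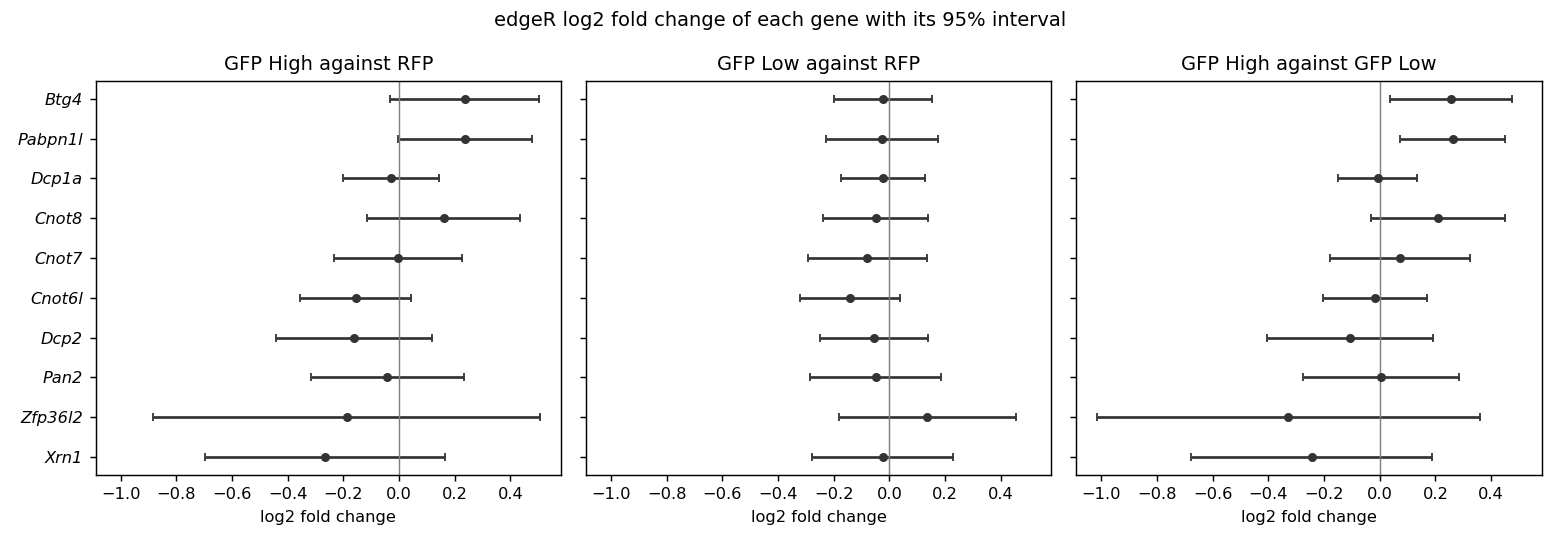
The log2 fold change of each gene with its 95% interval from edgeR in each comparison of 2 groups. The intervals of Btg4 and Pabpn1l in GFP High against GFP Low lie above 0, and those of Zfp36l2 and Xrn1 are the widest in the comparisons with GFP High.

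Btg4, the adaptor of maternal decay, had a higher mean in GFP High than GFP Low, without passing the adjusted test. Its level was 1304, 1786 and 1572 CPM in GFP High 1, 2 and 3, then 1348, 1276 and 1283 in GFP Low 1, 2 and 3, and 1443, 1360.4 and 1171 in RFP 1, 2 and 3. GFP High 2 and 3 stood above every other library, while GFP High 1 lay among the GFP Low and RFP libraries, so the groups overlapped. Group means were 1554 CPM ± 241 for GFP High, 1302 ± 39.8 for GFP Low and 1325 ± 139.7 for RFP (SD, n = 3). Against GFP Low the log2 fold change was 0.26 (SE 0.10, 95% interval 0.04 to 0.48), with an unadjusted edgeR p of 0.0262 and an adjusted p of 0.998. Against RFP it was 0.24 (SE 0.12, edgeR p 0.0788, adjusted p 0.997), and GFP Low against RFP gave -0.02 (SE 0.08). Without GFP High 2 the difference was 0.14 against GFP Low and 0.12 against RFP, and without GFP High 1 it was 0.36 and 0.34.

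Pabpn1l, the BTG4 partner, was the only member whose libraries did not overlap between 2 groups. It stood at 260.1, 290.3 and 273.2 CPM in GFP High 1, 2 and 3, at 238.5, 217.0 and 231.7 in GFP Low 1, 2 and 3, and at 261.4, 230.6 and 208.9 in RFP 1, 2 and 3. All GFP High libraries were above all GFP Low libraries, and RFP 1 exceeded GFP High 1 by a small margin that DESeq2 size factors turned. The mean was 275 CPM ± 15.1 (SD, n = 3) in GFP High against 229 ± 11.0 in GFP Low, about 1.2-fold. The log2 fold change was 0.26 (SE 0.08, 95% interval 0.07 to 0.45), with an unadjusted edgeR p of 0.0110 and an adjusted p of 0.998. This gene was thus 1 of 10 members without overlap in GFP High against GFP Low, where 11.5% of all genes had none, and the counts in the other comparisons were 0 of 10, with 11.9% of all genes in GFP High against RFP and 7.69% in GFP Low against RFP. Against RFP the log2 fold change in GFP High was 0.24 (SE 0.11, edgeR p 0.0527, adjusted p 0.997). In the test over the 3 groups Pabpn1l had an unadjusted edgeR p of 0.0308 and Btg4 of 0.0575, both with an adjusted p of 1.00. In the authors' deposited table for GFP High against GFP Low, Pabpn1l had an adjusted p of 0.394 and Btg4 of 0.654.

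Zfp36l2, which binds AU-rich elements and recruits the deadenylase, was low and varied most. It stood at 11.2, 26.0 and 13.3 CPM in GFP High 1, 2 and 3, at 22.0, 22.9 and 18.6 in GFP Low, and at 20.2, 20.3 and 17.3 in RFP. GFP High held both the highest library and the 2 lowest, so this group spanned the range of the others. The coefficient of variation was 47.4% in GFP High against 10.7% in GFP Low and 8.72% in RFP. GFP High against RFP gave a log2 fold change of -0.19 (SE 0.31), and it became -0.65 without GFP High 2 and 0.03 without GFP High 1. Against GFP Low it was -0.33 (SE 0.31), moving to -0.79 without GFP High 2 and -0.11 without GFP High 1. GFP Low against RFP gave 0.14 (SE 0.15).

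**Figure D3:**
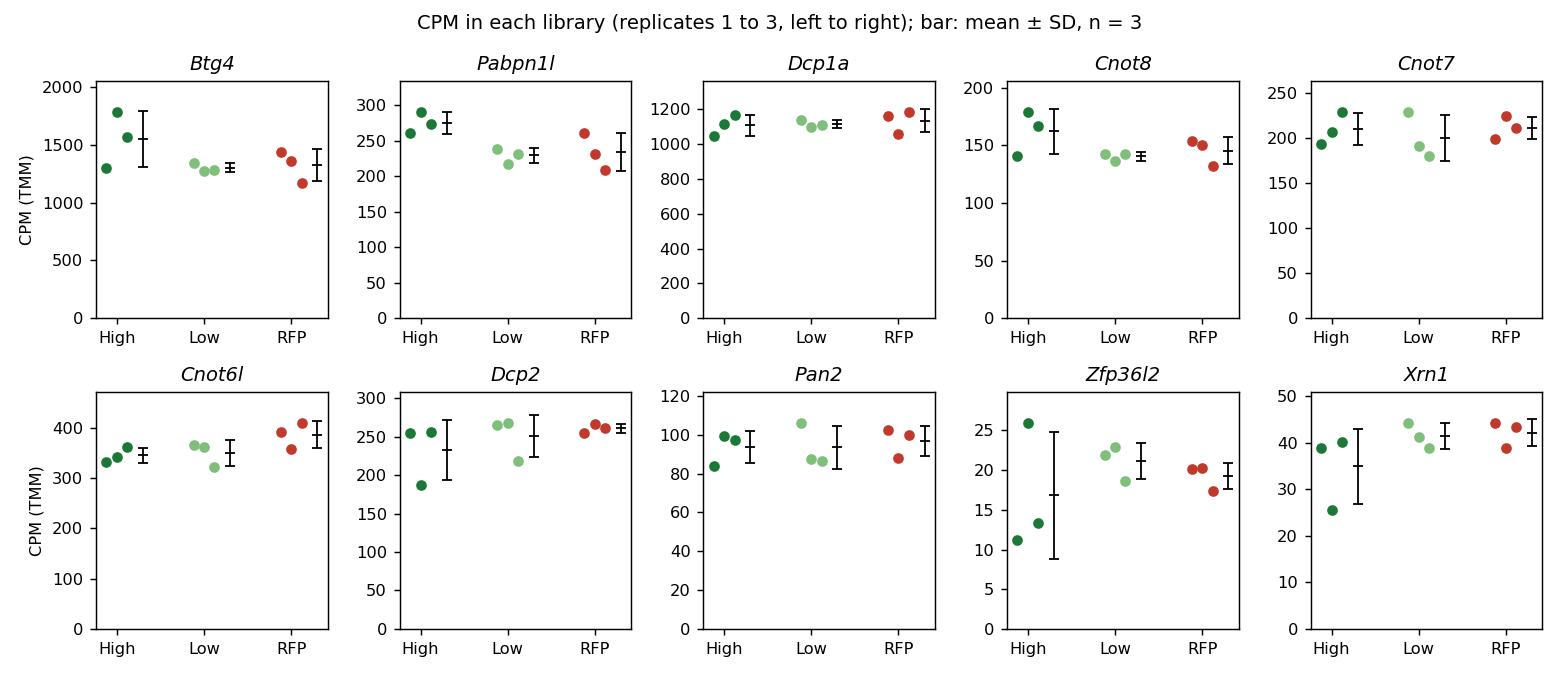
The CPM of each of the 10 genes by library, in 1 panel per gene with its own axis starting at 0, with points for replicates 1 to 3 from left to right and a bar for the mean ± SD (n = 3). Pabpn1l is the panel where GFP High and GFP Low do not overlap, and in Zfp36l2 the GFP High libraries span 11.2 to 26.0 CPM.

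Among the catalytic deadenylases, Cnot8 leaned the way of Btg4 and Cnot7 did not. Cnot8 stood at 140.6, 179.1 and 166.7 CPM in GFP High 1, 2 and 3, at 142.3, 136.2 and 143.0 in GFP Low, and at 154.2, 150.7 and 131.9 in RFP. GFP High 2 and 3 were the 2 highest libraries and GFP High 1 lay within the others, which is the arrangement seen for Btg4. Its log2 fold change in GFP High was 0.21 against GFP Low (SE 0.11, edgeR p 0.0829, adjusted p 0.998) and 0.16 against RFP (SE 0.12). Cnot7, its paralog, stood at 193.9, 207.2 and 229.2 CPM in GFP High, at 228.9, 191.0 and 180.0 in GFP Low, and at 199.2, 224.2 and 211.0 in RFP. The libraries of Cnot7 were intermixed, with GFP High 3 and GFP Low 1 highest. Its log2 fold change was -0.00 in GFP High against RFP (95% interval -0.23 to 0.23) and 0.07 in GFP High against GFP Low (-0.18 to 0.32). Whether Cnot7 and Cnot8 differ in their response was not tested.

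Cnot6l, the other catalytic subunit, had its highest mean in RFP. It stood at 332.7, 343.1 and 362.0 CPM in GFP High, at 367.0, 363.2 and 321.5 in GFP Low, and at 392.5, 358.0 and 410.8 in RFP. RFP 1 and 3 were the 2 highest libraries, and RFP 2 lay inside the range of both GFP groups. Against RFP the log2 fold change was -0.16 (SE 0.09, edgeR p 0.108) in GFP High and -0.14 (SE 0.08, edgeR p 0.115) in GFP Low, both measured against the same RFP libraries. Pan2, the separate deadenylase, stood at 84.2, 99.6 and 97.2 CPM in GFP High, at 106.2, 87.6 and 86.7 in GFP Low, and at 102.4, 88.2 and 99.8 in RFP. Its libraries were intermixed, and its 3 log2 fold changes lay between -0.05 and 0.00.

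The decapping genes and the exonuclease gave no called difference, and the decapping activator Dcp1a was the steadiest member. Dcp1a stood at 1046, 1115 and 1168 CPM in GFP High, at 1141, 1101 and 1109 in GFP Low, and at 1162, 1062 and 1186 in RFP. Its highest library was 1.13 times its lowest, and the log2 fold change of GFP High against RFP was -0.03 (95% interval -0.20 to 0.14). Dcp2, the decapping enzyme, stood at 254.3, 187.7 and 255.7 CPM in GFP High, at 265.1, 268.3 and 218.9 in GFP Low, and at 255.0, 267.0 and 261.2 in RFP. GFP High 2 was lowest and GFP Low 3 next, while the other libraries lay close together. GFP High against RFP gave -0.16 on the log2 scale (SE 0.13), and it was -0.03 without GFP High 2.

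Xrn1, which degrades decapped transcripts, was low in GFP High 2 as well. It stood at 39.0, 25.6 and 40.2 CPM in GFP High, at 44.3, 41.2 and 38.8 in GFP Low, and at 44.3, 38.9 and 43.3 in RFP. The 2 other GFP High libraries lay inside the range of GFP Low and RFP. The log2 fold change was -0.27 against RFP (SE 0.19) and -0.24 against GFP Low (SE 0.19), and without GFP High 2 it was -0.09 and -0.07. Across the 10 genes GFP High 2 was above every GFP Low and RFP library for 4 (Btg4, Cnot8, Zfp36l2 and Pabpn1l) and below all of them for 2 (Dcp2 and Xrn1). GFP High 3 was above all of them for 4 (Btg4, Cnot7, Cnot8 and Pabpn1l) and below for 1 (Zfp36l2). GFP High 1 was below all of them for 3 (Zfp36l2, Dcp1a and Pan2). The share of all genes with such positions was not computed. These numbers of members therefore cannot be read as a trait of the decay genes. All GFP High libraries had fewer genes with a count than the libraries of the other groups, and GFP High 2 had the fewest. The part of GFP High 2 in the results was not tested beyond the values given without it.

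The spread between libraries of a group was small for most members. The median coefficient of variation of the 10 genes was 10.5% for GFP High, 6.92% for GFP Low and 7.37% for RFP. Over the 7710 genes with a mean of at least 10 CPM the medians were 15.3%, 8.36% and 9.60%. Most members stood far above 10 CPM and were not compared with genes of like level, so the part of level in this spread was not tested. The lowest value was 1.88% for Dcp1a in GFP Low and the highest 47.4% for Zfp36l2 in GFP High. GFP High, with the smallest pools, had the largest median of the 3 groups among the members and among all genes. Pool size goes with the group, so the 2 cannot be told apart.

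The 3 members that were higher in GFP High than in RFP, namely Pabpn1l, Btg4 and Cnot8, are also the 3 with the shortest counted length, at 1193, 2556 and 2636 bases. Over all genes of at least 10 CPM the direction of the difference went with length. Set against RFP, 75.4% of genes of up to 1500 bases were higher in GFP High, 64.1% of those from 1500 to 3000, 49.4% of those from 3000 to 6000, 36.2% of those from 6000 to 12000 and 27.8% of longer ones. Set against GFP Low the shares ran from 70.5% in the shortest genes to 33.2% in the longest. GFP Low against RFP showed the same order, with 61.4% of the shortest and 36.1% of the longest genes higher in GFP Low. In GFP High against GFP Low the median log2 fold change of the shortest genes was 0.11, beside 0.26 for Pabpn1l, which falls in that class. In the 1500 to 3000 class of that comparison the median was 0.05, beside 0.26 for Btg4 and 0.21 for Cnot8. Xrn1, the longest member with 18585 counted bases, is in the class with the lowest share. With each library's trend on length removed, a setting chosen after seeing the data, the log2 fold change of GFP High against GFP Low was 0.17 for Pabpn1l, 0.22 for Btg4, 0.18 for Cnot8 and -0.18 for Xrn1. Against RFP it was 0.11, 0.18, 0.11 and -0.18, and no member was called. The oocyte markers leaned the same way, with 14 of 14 higher in GFP High than GFP Low (median log2 fold change 0.15) and 13 of 14 higher than in RFP (median 0.17). Their part and that of length in the members' differences were not tested.

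**Figure D4:**
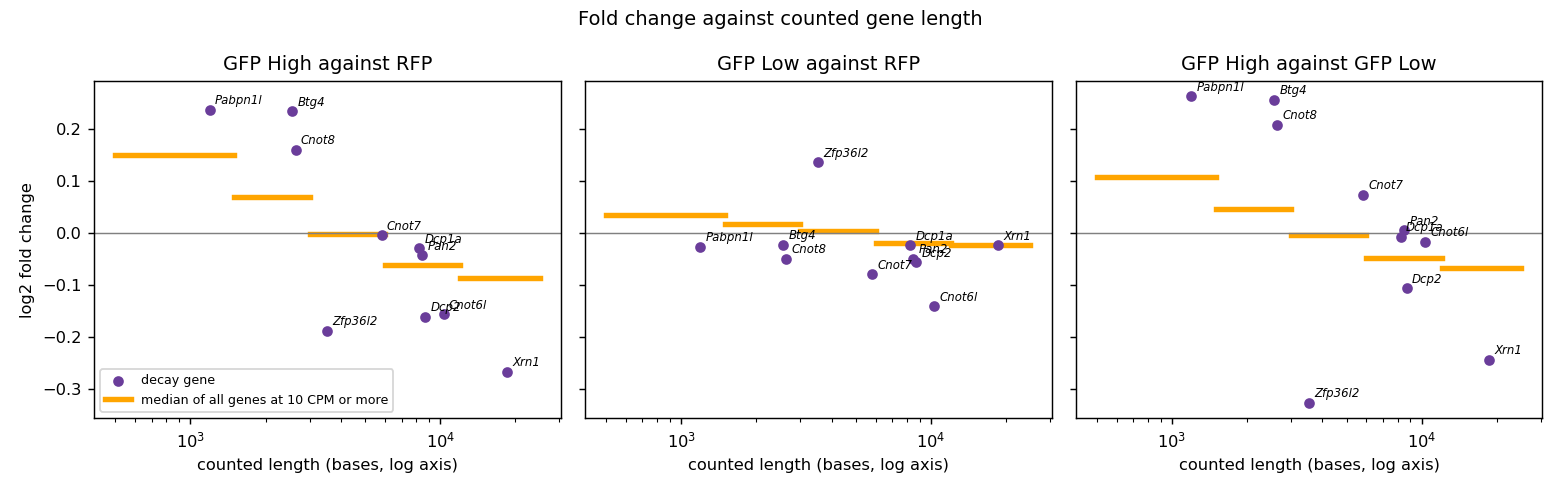
The log2 fold change of each of the 10 members by counted length on a log axis, in each comparison, with orange bars at the median of all genes of at least 10 CPM in each length class. The median falls with length, from 0.15 in genes up to 1500 bases to -0.09 beyond 12000 bases in GFP High against RFP, and Pabpn1l, Btg4 and Cnot8 lie on the short side.

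Of 76 further genes of the pathway, 75 were matched to the tables and 72 to 74 were tested per comparison. By edgeR's adjusted p 0 of 72 were called in GFP High against RFP, 0 of 73 in GFP High against GFP Low and 0 of 74 in GFP Low against RFP. At an unadjusted p below 0.05 there were 5, 7 and 1, beside 4.09%, 3.77% and 2.62% of all genes tested. The median log2 fold change of these genes was -0.04 in GFP High against RFP, with 28 of 72 higher, -0.04 in GFP High against GFP Low, with 28 of 73 higher, and 0.01 in GFP Low against RFP, with 41 of 74 higher.

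Within CCR4-NOT and its adaptors, Cnot3, a noncatalytic subunit, was the most abundant at 83.0 FPKM, above Cnot8. In that list 4 of 13 genes were higher in GFP High than in RFP, and the median log2 fold change was -0.06. Among the other deadenylases Angel2 was highest at 29.2 FPKM, and 2 of 6 were higher in GFP High than in RFP, with a median of -0.02. Of the decapping and P-body factors Lsm14b, an oocyte RNP granule protein, reached 346 FPKM, and 10 of 16 were higher in GFP High than in RFP, with a median of 0.01. Paip1, a partner of the cytoplasmic poly(A)-binding protein, led the poly(A)-binding list at 86.3 FPKM, where 2 of 6 were higher and the median was -0.05. Dis3l, a catalytic exosome subunit of the cytoplasm, led the exonuclease and exosome list at 69.4 FPKM, with 6 of 18 higher and a median of -0.07.

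The list of RNA-binding proteins, labelled RNA-binding decay adaptors in the figure, had Igf2bp2 as its most abundant gene, at 107 FPKM. Whether each of its genes acts as a decay adaptor was not tested. This list held the smallest unadjusted edgeR p of the 6 lists in each comparison. In GFP High against GFP Low, however, its gene Ythdf2 and Dis3 of the exosome list were nearly equal, at 0.0206 and 0.0207. Ythdf2, a reader of methylated adenosine that recruits CCR4-NOT, stood at 59.8, 40.7 and 52.5 CPM in GFP High, at 69.5, 75.2 and 64.0 in GFP Low, and at 73.2, 70.6 and 68.2 in RFP. All GFP High libraries were below all others. Its log2 fold change in GFP High was -0.47 against RFP (SE 0.16, edgeR p 0.0157, adjusted p 0.997) and -0.45 against GFP Low (SE 0.16, edgeR p 0.0206, adjusted p 0.998), so it did not pass. The paralog Ythdf1 stood at 21.9, 9.23 and 6.74 CPM in GFP High, at 10.7, 11.2 and 11.6 in GFP Low, and at 14.4, 13.5 and 16.2 in RFP. GFP Low was below RFP in every library, by -0.39 on the log2 scale (SE 0.16, edgeR p 0.0332, adjusted p 1.00), while GFP High spanned both. Groups without overlap were found for 9 of 72 pathway genes in GFP High against RFP, beside 11.9% of all genes. In GFP High against GFP Low there were 7 of 73, beside 11.5%, and in GFP Low against RFP 8 of 74, beside 7.69%. The other genes at an unadjusted p below 0.05 in GFP High against RFP, named after their values were seen, were Dis3 at -0.61, Celf1 at -0.33, Marf1 at -0.26 and Lsm6 at 0.30. In the whole RNA-binding list 4 of 13 genes were higher in GFP High than in RFP, and the median was -0.10.

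**Figure D5:**
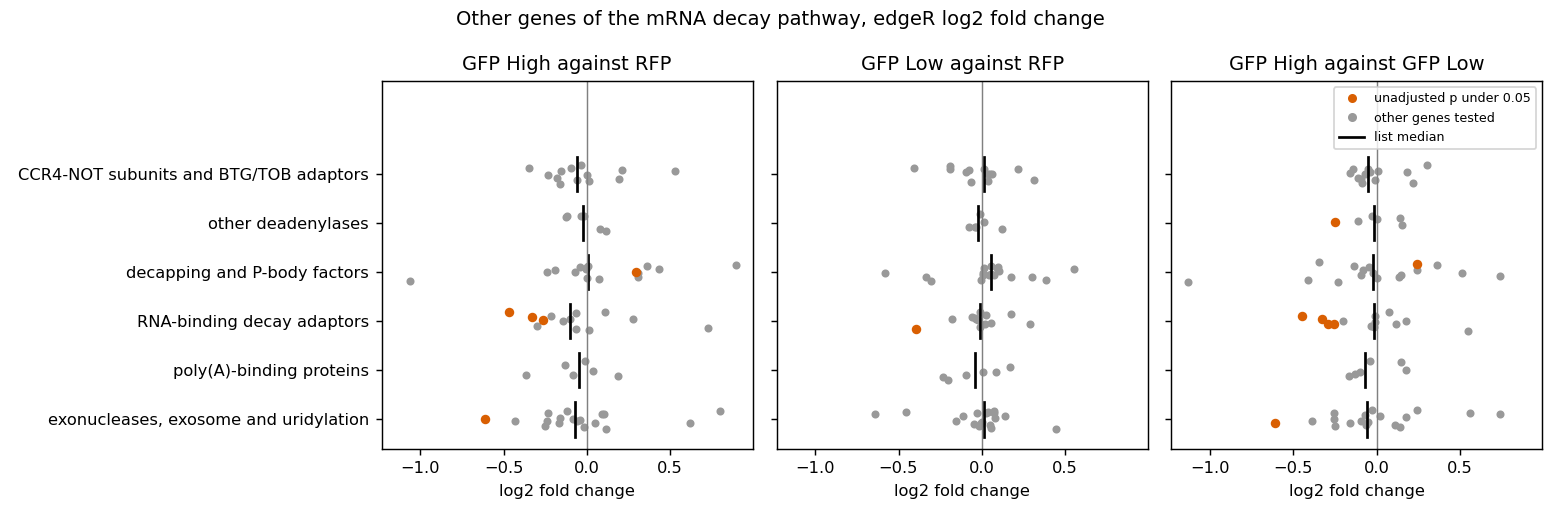
The log2 fold change of each tested pathway gene by list, in 1 panel per comparison, with the median of each list as a bar and genes at an unadjusted edgeR p under 0.05 in orange. In GFP High against RFP the list medians lie between -0.10 for the RNA-binding list and 0.01 for the decapping factors.

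On GRCm38 the members are protein-coding genes at these places, with counted lengths from 1193 bases for Pabpn1l to 18585 for Xrn1. Btg4 spans chr9:51060901-51119875 on the plus strand and Pabpn1l chr8:122619471-122622739 on the minus strand. Zfp36l2 spans chr17:84183931-84187947 on the minus strand. The deadenylases lie at chr8:40492540-40515847 (Cnot7, minus), chr11:58104153-58118594 (Cnot8, plus), chr5:96070333-96164171 (Cnot6l, minus) and chr10:128303335-128321358 (Pan2, plus). Dcp1a spans chr14:30479535-30527063, Dcp2 chr18:44380502-44424969 and Xrn1 chr9:95954760-96057803, all on the plus strand.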

How the data were processed

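RNA-seq of poly-A RNA was analysed in 9 libraries. The authors deposited 3 tables, 1 per pair of groups, with raw read counts per gene, from which all tests were made. These deposited tables also give normalised signal values, which the text does not use, FPKM, used only to compare levels between genes, and the authors' log2 fold changes and p-values, quoted only by that name. The submitters' processing notes name fastp, HISAT2 2.0.5, featureCounts 1.5.0-p3, DESeq2 1.20.0 and mm10, with no role for each. The tables were joined by gene identifier into 30153 genes, with 178 genes absent from a table set to 0 there. Of the identifiers, 29332 of 30153 had the same coordinates in GENCODE M21 (GRCm38), all members included.

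Each pair of groups was fitted on its 6 libraries in edgeR 4.0.16 (R 4.3.3) with filterByExpr, TMM scaling, glmQLFit and glmQLFTest and no covariate; a further fit took all 9 libraries. Standard errors and 95% intervals were derived from the F statistic, p-values were Benjamini-Hochberg adjusted over all genes tested, with a threshold of 0.05, and CPM are TMM-scaled. Alternatives were DESeq2 1.42.0, limma-voom 3.58.1, other scaling and filters, a replicate block, leaving out each library, and removal of the length trend, the last chosen after seeing the data. Library totals of 19381677 to 27746256 set the depth, and reads carry no molecular identifiers.

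The members and lists were chosen with earlier results of these data known. Genes named outside the members were, by rule, the highest in FPKM of each list, any called gene, and the smallest p of each comparison over all lists. The paralogs of members, the marker genes and Dis3, Celf1, Marf1 and Lsm6 fall outside that rule and were named after their values were seen. Replicate pairs had a chi-square per degree of freedom of 13.8 to 57.6 against sampling noise, so none was counted as 1 library deposited again.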

Additional observations from a re-analysis of the deposited data

How the results depend on the processing

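No member and no other pathway gene was called under any setting, and the lowest adjusted p of a member over all settings was 0.394 in GFP High against GFP Low (Pabpn1l with DESeq2), 0.464 for Btg4 (leaving out GFP High 1) in GFP High against RFP and 0.818 for Cnot6l (no filter) in GFP Low against RFP. Over all genes the count called moved. In GFP High against RFP it was 2, and 12 with DESeq2, 1 with limma-voom, 16 with no filter on low counts and 4 with the replicate block. In GFP Low against RFP it was 3, and 10 with DESeq2, 1 with limma-voom and 34 with no filter. In GFP High against GFP Low it was 0, and 4 with DESeq2 and 16 with no filter. Leaving out 1 library gave 0 to 2, 2 to 3 and 0 to 1 genes in that order, and 0 members each time. The 2 genes in GFP High against RFP became 0 on leaving out RFP 2, RFP 3, GFP High 1 or GFP High 3, and the 0 genes in GFP High against GFP Low became 1 without GFP High 3. Same-numbered libraries did not deviate together, with correlations of -0.107 to 0.137. These values show no pairing by number but cannot exclude it, since spread between pools can hide a shared source. The block changed no other call.

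Among the members, 13 of 300 fold changes under other settings and 24 of 180 with a library left out changed sign. The following are log2 fold changes. Cnot7 in GFP High against RFP (-0.0041) became 0.0069 with DESeq2, 0.0064 with its size factors, 0.00023 with a mean of at least 50 counts and 0.032 with the length trend removed. Dcp1a in GFP High against GFP Low (-0.0074) became 0.0036 with DESeq2, 0.0032 with its size factors and 0.00041 with at least 50 counts. Pan2 in that comparison (0.0049) became -0.0027 with no filter. With the length trend removed Dcp1a was 0.036 and Pan2 0.025 in GFP High against RFP, Dcp1a 0.044 and Cnot6l 0.041 in GFP High against GFP Low, and Xrn1 0.0026 in GFP Low against RFP. Leaving out 1 library, GFP High against RFP ran from -0.079 to 0.043 for Cnot7, -0.65 to 0.028 for Zfp36l2, -0.078 to 0.0045 for Dcp1a and -0.11 to 0.022 for Pan2. GFP Low against RFP ran from -0.11 to 0.041 for Btg4, -0.069 to 0.0059 for Dcp1a, -0.11 to 0.030 for Dcp2, -0.10 to 0.059 for Pabpn1l and -0.079 to 0.018 for Xrn1. GFP High against GFP Low ran from -0.082 to 0.012 for Cnot6l, -0.0025 to 0.18 for Cnot7, -0.050 to 0.027 for Dcp1a, -0.20 to 0.022 for Dcp2 and -0.053 to 0.10 for Pan2. The cause of these moves was not tested. In GFP High against RFP 1 member had groups without overlap in place of 0, namely Dcp2 with library totals alone and Pabpn1l with DESeq2 size factors. The number of libraries, 3 a group, sets the width of the intervals given.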
